A study of Rattus norvegicus with 18 samples.

Results

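The 10 genes described here encode the neurofilament subunits of the rat brain (Nefl, Nefm, Nefh and Ina), 4 microtubule-associated proteins (Map1a, Map1b, Map2 and Mapt), the growth-associated protein Gap43 and the tubulin-binding protein Stmn1. They were taken by name: a probe set, the group of short oligonucleotides that reads one transcript on the array, was a member when its single gene symbol in the platform annotation was one of these 10. This gave 22 of the 8799 probe sets. The tissue was the suprachiasmatic nucleus (SCN), a paired nucleus of the hypothalamus that keeps daily time for the body. It came from male Long-Evans adults with no genetic change or drug treatment named in the labels. The rats were kept on a cycle of light and dark and then in constant darkness, and the groups were the time points 0, 6, 12, 18, 24, 30, 36 and 42 h, counted from the first projected lights-on, which is circadian time (CT) 0. Each time point was 1 pool of RNA from 5 rats, killed under isoflurane anesthesia, so CT 0, CT 6, CT 12 and CT 18 each had 2 pools, 1 on each day. The pools were read on 10 arrays of a first run, where 24 h and 36 h each had an array a and an array b, and on 8 arrays of a technical repeat.

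Neurofilaments are the intermediate filaments of neurons: the light subunit Nefl forms the core with Nefm, Nefh and, in the central nervous system, alpha-internexin (Ina), and the long tails of Nefm and Nefh project from the filament and are phosphorylated in axons. The microtubule-associated proteins bind and stabilise microtubules, Map2 mainly in dendrites and tau (Mapt) mainly in axons, whereas stathmin (Stmn1) binds free tubulin and favours disassembly. The SCN holds small, densely packed neurons that fire with a daily rhythm, and structural changes of its synapses and glia over the day have been described.

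Of the 22 probe sets, 13 lay above the median level of the non-control probe sets and were tested, within 4370 tested sets in all. These 13 covered 9 of the 10 genes. The intensities are the authors' deposited values on a linear scale, and a level cannot be set against that of another probe set. The number of arrays limits the precision, and since each time point was 1 pool, a p-value reflects how far pools scatter about the fitted curve, which may be technical in part. Among the transcripts that define the SCN, Avp lay between 1226 and 2204 and Sst between 4492 and 7656 over the 8 pools, while Vip lay below the level filter with 30.8 to 78.6. In the first run, 3 arrays, at 12 h, at 18 h and array b at 36 h, stood apart by their hybridisation controls, transcripts added to each sample in known amounts, which were 1.30, 1.35 and 1.71 above the median array on the log2 scale. Of these 3 arrays, 2 are CT 12 arrays, so fits to single arrays without the 3 were added after the data had been seen, with the run as a term and the pool as a random block.

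The 9 untested probe sets were all 3 of Map1b, the large microtubule-associated protein of growing axons, 4 of the 5 of Map2, and the second sets of Nefl and Nefh. The Map1b sets had mean intensities of 31.3, 15.0 and 12.7 over the pools, and the last of these fell below the floor of 12.1 on 16 of the 18 arrays. Map1b thus had no set above the filter, and no statement on its time course is made. The 4 low Map2 sets had means of 23.8, 24.4, 29.4 and 56.6. The second Nefl set had a mean of 23.9 and the second Nefh set one of 81.0, with single arrays between 18.1 and 198.5.

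Whether the light, medium and heavy neurofilament subunits differ in their course over the day was not tested. Over the pool means, the correlation was 0.18 for Nefl and Nefm, 0.11 for Nefl and Nefh and −0.19 for Nefm and Nefh. In the first run these values were 0.060, −0.57 and 0.27, and in the technical repeat 0.58, 0.55 and −0.24. Each set's own correlation between the runs was 0.34 for Nefl, 0.49 for Nefm and 0.28 for Nefh. The Nefl set (AF031880_at, mean 783) read 897 and 754 in the CT 0 pools, 663 and 1013 at CT 6, 604 and 771 at CT 12, and 729 and 918 at CT 18, the first value of each pair from day 1. The 12 h pool was the lowest and the 30 h pool the highest, and the CT 12 and CT 0 pools overlapped. The Nefm set (Z12152_at, mean 985) read 953 and 1228 at CT 0, 919 and 848 at CT 6, 833 and 1037 at CT 12, and 970 and 1165 at CT 18. Its CT 6 pools both lay below its CT 18 pools.

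Nefh, the heavy subunit, had the largest fitted amplitude of the 13 sets. Its tested set (rc_AA818677_at, mean 1039.7) read 756 and 969 at CT 0, 839 and 1365 at CT 6, 1294 and 1260.2 at CT 12, and 883 and 1131 at CT 18. At CT 12 each pool read higher than either CT 0 pool, and the fitted difference was 0.58 ± 0.25 (SE, log2, 8 pools; 95% interval 0.02 to 1.13). The unadjusted limma p was 0.043 and the adjusted p was 0.567, so the difference did not pass the test. The fitted CT 12 minus CT 0 difference was 0.36 in the first run, where the pools overlapped, and 0.79 in the technical repeat. In fits to single arrays it was 0.43, and 0.37 without the 3 arrays of high hybridisation controls.

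Ina, the fourth subunit, was read by a pair of tested sets with different courses. Set 1 (M73049_at, mean 418) ranged over the 8 pools from 363 at 42 h to 502 at 24 h. Set 2 (rc_AA875659_s_at, mean 242) read 308, 257, 274 and 342 on day 1 and 101, 363, 119 and 357 on day 2, from CT 0 to CT 18. The low pools at 24 h and 36 h are the time points with arrays a and b: on these 4 arrays set 2 read 132 (a) and 28.5 (b) at 24 h and 165 (a) and 26.9 (b) at 36 h, against 308 to 639 on the other 6 first-run arrays. In the technical repeat the same 2 pools read 168 and 212, within the range of the other 6 arrays, 138 to 265. The low level was thus read in the first run and not in its repeat.

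Map1a, a large microtubule-associated protein of mature neurons, was read by 2 tested sets as well. Set 1 (M83196_at, mean 1161) lay between 940.2 at 42 h and 1513 at 18 h, and set 2 (X66840cds_s_at, mean 125) between 92.7 at 18 h and 163 at 6 h. The 18 h pool was thus the highest for one set and the lowest for the other. The fitted CT 12 minus CT 0 differences were −0.04 ± 0.22 and −0.11 ± 0.26 (SE, log2).

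Map2, the dendritic microtubule-associated protein, was the member with the lowest CT 12 minus CT 0 value. Its tested set (U30938_at, mean 5041) read 6487 and 5054 at CT 0, 5122 and 5117 at CT 6, 4294 and 4286 at CT 12, and 4395 and 5996 at CT 18. Both CT 12 pools lay below both CT 0 pools, in the first run (3679 and 3820.1 against 6197 and 4257) and in the technical repeat (5012 and 4808 against 6791 and 5999). The fitted difference was −0.42 ± 0.21 (SE, log2, 8 pools; 95% interval −0.87 to 0.04; limma adjusted p = 0.575). It was −0.45 in the first run and −0.38 in the repeat. With array b alone at 24 h and 36 h, the first-run pools of both phases overlapped. In fits to single arrays the difference was −0.36, and −0.14 without the 3 arrays of high hybridisation controls.

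Tau, the axonal microtubule-associated protein, was read by 3 tested sets. Set 1 (rc_AA957930_s_at, mean 11955) read 11075 and 11371 at CT 0, 11727 and 11348 at CT 6, 13570 and 13864 at CT 12, and 11589 and 11418 at CT 18. Both CT 12 pools stood above the 6 others; the fitted difference to CT 0 was 0.29 ± 0.17 (SE, log2; 95% interval −0.08 to 0.66; limma adjusted p = 0.632). The 36 h value rests in part on array b of the first run, which read 22535 against 10214 on array a. Without arrays b the 36 h pool read 11376 and the 24 h pool 10482. The CT 12 pools were then higher than the CT 0 pools, but the 36 h pool lay below those at 6 h, 18 h and 42 h. In the technical repeat the CT 12 pools read 12138 and 12669, against 10504.5 and 9322 at CT 0. With array a or array b alone, the first-run pools of both phases overlapped. In fits to single arrays the difference was 0.26, and 0.01 without the 3 arrays of high hybridisation controls.

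Tau set 2 (X79321_at, mean 5914) varied least, from 5347 at 18 h to 6346 at 30 h, and its 2 runs ran opposite. In the first run the lowest pools were those at 18 h (3494) and 36 h (4431), and in the technical repeat these were the highest (8181 and 8022). Tau set 3 (rc_AI227608_s_at, mean 1542) read 1763 and 1538 at CT 0, 1379 and 1253 at CT 6, 1463 and 1473 at CT 12, and 1714 and 1849 at CT 18. Its CT 6 pools lay below its CT 18 pools with a fitted difference of −0.44 ± 0.17 (SE, log2; 95% interval −0.81 to −0.06), an unadjusted limma p of 0.027 and an adjusted p of 0.968.

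Gap43, a membrane protein of growth cones and of plastic presynaptic endings, read 6718 and 7198 at CT 0, 6567 and 6517 at CT 6, 8030 and 8690.0 at CT 12, and 6217 and 7486 at CT 18 (L21192_at, mean 7136). The CT 12 pools were the 2 highest of the 8. They were above the CT 0 pools in the first run (7218 and 7245 against 5596 and 6200) and in the repeat (8933 and 10423 against 8064 and 8356), also with array a or array b alone. The fitted difference was 0.26 ± 0.19 (SE, log2; 95% interval −0.16 to 0.69; limma adjusted p = 0.709). In fits to single arrays it was also 0.26, and 0.13 without the 3 arrays of high hybridisation controls.

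Stmn1 (rc_AI231821_at, mean 8930.4) read 8162 and 8296 at CT 0, 8464 and 8874 at CT 6, 10950.4 and 9664 at CT 12, and 8913 and 8433 at CT 18. Its CT 12 pools also stood above the 6 others, with a fitted difference to CT 0 of 0.32 ± 0.17 (SE, log2; 95% interval −0.05 to 0.70; limma adjusted p = 0.604). Within runs the CT 12 readings were 12341 and 10125 against 7623 and 8818 in the first run, and 9717 and 9224 against 8738 and 7804 in the repeat. With array a alone the 36 h pool of the first run read 7743, below the 24 h pool at 7976, so that the phases overlapped there. The mean of both runs at 36 h was then 8451, above the CT 0 pools but below those at 6 h, 18 h and 30 h. In fits to single arrays the difference was 0.30, and 0.078 without the 3 arrays of high hybridisation controls.

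**Figure D1:**
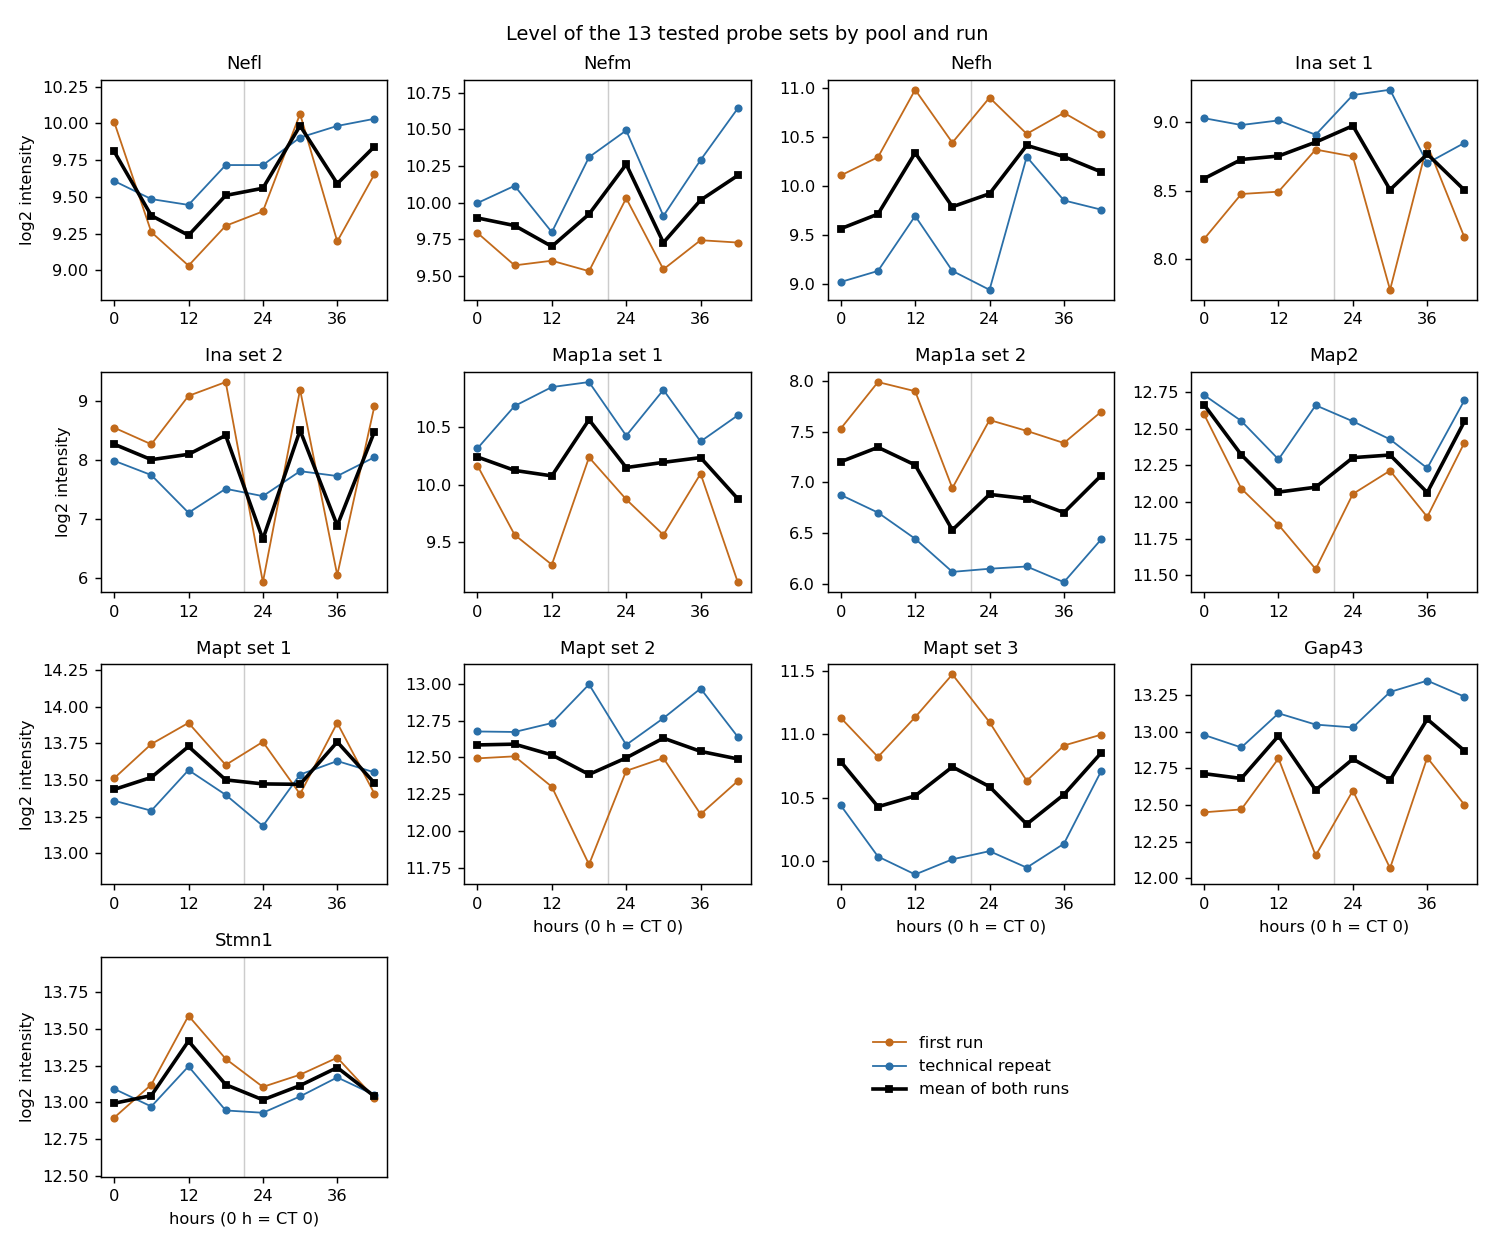
Log2 intensity of the 13 tested probe sets (1 panel each, vertical axis) against hours from the first projected lights-on (horizontal axis) in the 8 pools: first run, technical repeat and their mean, with a grey line between the days. Gap43, Stmn1 and the first Mapt set have their 2 highest mean values at 12 h and 36 h. With array a alone at 24 h and 36 h, this holds for Gap43 but not for Stmn1 and the first Mapt set. In the second Mapt set the pools at 18 h and 36 h are the lowest of the first run and the highest of the technical repeat.

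Since E-box elements bind the clock proteins CLOCK and BMAL1, the promoters of the members were searched for CACGTG and for 4 other letter patterns of clock-related elements on both strands. RefSeq promoters (250 bases before to 50 after the start, GRCr8) were at hand for 5 of the 10 genes: Ina, Map1a, Map1b, Map2 and Stmn1. Stmn1 alone of these held CACGTG, with matches beginning 135 and 91 bases before the start, while 6.42% of 33469 promoters of this length hold it. The stretch of chr5:151965019-151965118 (GRCr8, plus strand) with both matches in capitals is shown because Stmn1 is among the sets with high CT 12 pools.
Stmn1: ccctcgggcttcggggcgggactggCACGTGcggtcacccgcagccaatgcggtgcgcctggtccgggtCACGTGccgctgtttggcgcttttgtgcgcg
The patterns CACGTT (4.83% of promoters), TTANNTAA (5.84%), TAGGTCA (2.63%) and TGACGTCA (1.83%) were found in none of the 5. A match is a string of letters and not a measured binding site.

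The first comparison asked whether the members followed a 24-h rhythm in constant darkness. No member did so at the threshold: 0 of 13 sets passed limma's moderated F test of a cosine and a sine at an adjusted p under 0.05, as did 0% of all 4370 tested sets. At an unadjusted p under 0.05 the count was also 0 of 13, where 6.36% of all sets were called. Fitted amplitudes, the distance from the mean to the peak, ran from 0.03 for Ina set 1 to 0.29 for Nefh on the log2 scale. Their median was 0.14, against 0.16 over all tested sets. Adjusted limma p-values lay between 0.746 and 0.985.

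An exact permutation test that reassigned the pools to time points, and so compares a set only with its own spread, gave p under 0.05 for 4 of 13 sets, against 5.84% of all sets. These were Mapt set 3 (exact p = 0.00635, amplitude 0.23 ± 0.08 SE, peak at CT 19.4), Stmn1 (exact p = 0.00952, 0.16 ± 0.09, CT 12.0), Mapt set 1 (exact p = 0.0190, 0.14 ± 0.08, CT 11.9) and Mapt set 2 (exact p = 0.0254, 0.09 ± 0.08, CT 5.7). Apart from Stmn1 these are all sets of Mapt, so they are not separate genes, and their fitted peaks differ. The smallest p that this test can give is 0.00317, and after adjustment over all tested sets the 13 values lay between 0.677 and 0.986. In the first run alone 0 of the 13 had an exact p under 0.05, the smallest being 0.0508 for Stmn1, and in the technical repeat alone Map2 was the 1 set that did (exact p = 0.0381). In fits to single arrays without the 3 arrays of high hybridisation controls, the amplitude was 0.21 for Mapt set 3, 0.069 for Mapt set 2, 0.051 for Stmn1 and 0.0098 for Mapt set 1. With all arrays these fits gave 0.23, 0.094, 0.15 and 0.13. The 2 runs averaged for Mapt set 2 had r = −0.83 with each other, or 0.12 without 2 pools. Its SD over the pools was 0.077 (log2) for the mean, against 0.25 in the first run and 0.15 in the repeat. Its CT 6 minus CT 18 difference was 0.45 in the first run and −0.099 in the repeat.

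The second comparison set CT 12, the end of the projected day, against CT 0. Stmn1, Gap43, Mapt set 1 and Nefh had higher pools at CT 12, Map2 and Mapt set 3 lower ones, and the 7 other sets overlapped. These 6 of 13 sets stand against 44.8% of all tested sets whose pools did not overlap. By limma 0 of 13 passed at an adjusted p under 0.05 (0% of all sets), and Nefh alone passed unadjusted (1 of 13, against 8.67% of all sets). The fitted differences ran from −0.42 to 0.58, with a median of −0.02 against 0.01 over all sets. Map2 was lower and Mapt set 1, Gap43 and Stmn1 were higher without overlap in both runs, 4 of 13 sets against 13.2% of all sets. Gap43 alone kept this with array a and with array b alone, where 2 of 13 sets each did so (11.1% and 10.3% of all sets). Leaving out the 3 arrays of high hybridisation controls moved the differences in fits to single arrays both ways. They became smaller for Nefl, Nefm, Nefh, Map2, Mapt set 1, Gap43 and Stmn1. They grew for Ina set 1 (−0.0024 to −0.41), Ina set 2 (0.051 to 0.55), Map1a set 2 (−0.13 to −0.28) and Mapt set 3 (−0.17 to −0.22). Map1a set 1 and Mapt set 2 changed sign.

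Cell type markers were read over the same pools. Of 9 listed astrocyte markers 7 were tested, with a median CT 12 minus CT 0 difference of −0.0019 (log2), 3 of 7 above 0, and by limma 0 called adjusted and Fabp7 alone unadjusted, at −0.40 ± 0.18 SE. Their summed intensity, of which Glul (mean 20235) and S100b (mean 9271) make up the most, was 40574 and 42956 in the CT 0 pools and 45057 to 46304 in the CT 12 pools. The 5 tested of 10 listed pan-neuronal markers had a median of −0.083, and their sums overlapped, with 12004 to 12712 at CT 0 and 11368 to 13198 at CT 12. The 7 tested of 10 listed oligodendrocyte and myelin markers had a median of −0.31, and their sums overlapped too, with 37567 to 37749 and 33690.0 to 37571. In the other marker lists 0 genes were called adjusted by limma. Unadjusted, Avp was called among 3 tested SCN markers (0.60 ± 0.20 SE, log2). So were Pmch among 10 of neighbouring hypothalamic neurons (−0.90 ± 0.27) and Kdr among 3 of vessels (−0.83 ± 0.31). Of 4 microglia markers and 4 of choroid plexus and ependyma, 0 were called for CT 12 minus CT 0. For CT 6 minus CT 18, limma called 0 markers of any list adjusted. Unadjusted, Ttr of the choroid plexus had the largest difference (2.04 ± 0.37 SE, log2). Also called unadjusted were Pomc (1.01 ± 0.34), Fabp7 (0.65 ± 0.18) and Pmch (−0.80 ± 0.27). The part of these markers in the result was not tested, and in bulk tissue fewer cells of a type and less RNA per cell cannot be told apart.

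Between CT 6 and CT 18, mid-day and mid-night of the projected cycle, 3 of 13 sets had pools that did not overlap, against 31.4% of all sets: Nefm and Mapt set 3 were lower at CT 6 and Mapt set 2 was higher. Limma called 0 of 13 adjusted (0.0229% of all sets) and 1 of 13 unadjusted, Mapt set 3 (4.26% of all sets). The differences were −0.44 for Mapt set 3, −0.27 ± 0.20 for Nefm and 0.29 ± 0.26 (SE, log2) for Map1a set 2, and the median was 0.00 against −0.02 over all sets. The Mapt set 3 pools did not overlap in the first run (1809 and 1589 against 2840 and 2043) and overlapped in the repeat (1050 and 989 against 1035 and 1673). Those of Mapt set 2 did not overlap in the first run, with a difference of 0.45, and overlapped in the repeat, at −0.099. Those of Nefm overlapped in the first run (−0.072) and did not in the repeat (−0.46).

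**Figure D2:**
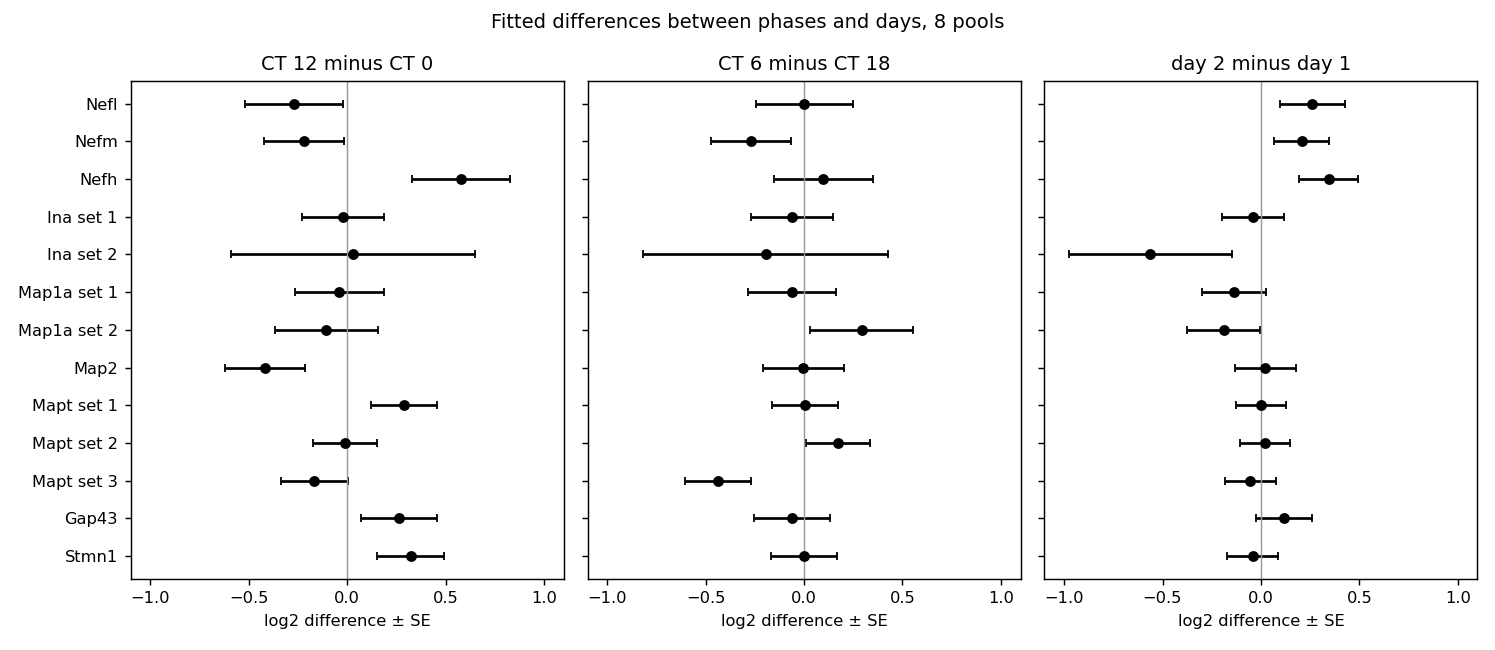
Fitted log2 differences (horizontal axis) with their standard errors for the 13 tested probe sets (vertical axis) from the fits to 8 pools: CT 12 minus CT 0, CT 6 minus CT 18 and day 2 minus day 1. Nefh has the highest value (0.58) and Map2 the lowest (−0.42) in the first panel, and the second Ina set has the widest error in all 3.

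The second day in darkness was then compared with the first. No member had day 2 pools all above or all below its day 1 pools, 0 of 13 against 1.88% of all sets. Nefh read 923 on day 1 and 1172 on day 2 as geometric means of 4 pools, a difference of 0.34 ± 0.15 (SE, log2; limma unadjusted p = 0.045, adjusted p = 0.997). It was the 1 set of 13 called without adjustment, against 3.96% of all sets, and with adjustment 0 of 13 and 0% of all sets were called. Nefl (0.26 ± 0.17) and Nefm (0.21 ± 0.14) had differences in the same direction, and Ina set 2 had the lowest (−0.56 ± 0.42), with its low first-run arrays at 24 h and 36 h on that day. Over the same days Sst, an SCN neuropeptide transcript, had a difference of −0.41 ± 0.14 (SE, log2; limma unadjusted p = 0.017), while Avp stood at 0.036 and the synaptotagmin Syt10, the other tested SCN marker, at 0.041. In the other marker lists limma called 0 genes adjusted. Unadjusted it called Npy (−0.39 ± 0.15), Slc1a2 (−0.34 ± 0.13) and Flt1 (0.34 ± 0.15). The 10 tested genes of neighbouring hypothalamic neurons had a median of −0.19, with 2 above 0. What part these markers had in the result was not tested.

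How firmly these courses can be read is shown by the technical repeat, which read the same pools on a second series of arrays. The 9 sets called between the runs at an adjusted limma p under 0.05 make up most of the 13, and 48.4% of all sets were called. Higher in the repeat were Map1a set 1 (0.88 ± 0.17 SE, log2), Gap43 (0.63 ± 0.12), Ina set 1 (0.56 ± 0.16), Nefm (0.50 ± 0.12), Mapt set 2 (0.45 ± 0.14) and Map2 (0.44 ± 0.12), with adjusted limma p-values between 0.00157 and 0.0201. Lower were Map1a set 2 (−1.20 ± 0.12, limma adjusted p = 4.3e-05), Nefh (−1.09 ± 0.17, adjusted p = 0.000329) and Mapt set 3 (−0.87 ± 0.14, adjusted p = 0.000409). The sets of one gene went opposite ways for Map1a and for Mapt. Scaling each array to a common median moves all differences between runs up by a median of 0.30: the called members are then 7 higher and 3 lower, and 73.9% of all called sets are higher, against 43.2% with the deposited scaling. All 8 pools showed the direction in 8 of the 9 sets, with an exact sign-flip permutation p of 0.00781, the smallest that 8 pools can give, and 7 of 8 did for Ina set 1 (exact p = 0.0234).

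**Figure D3:**
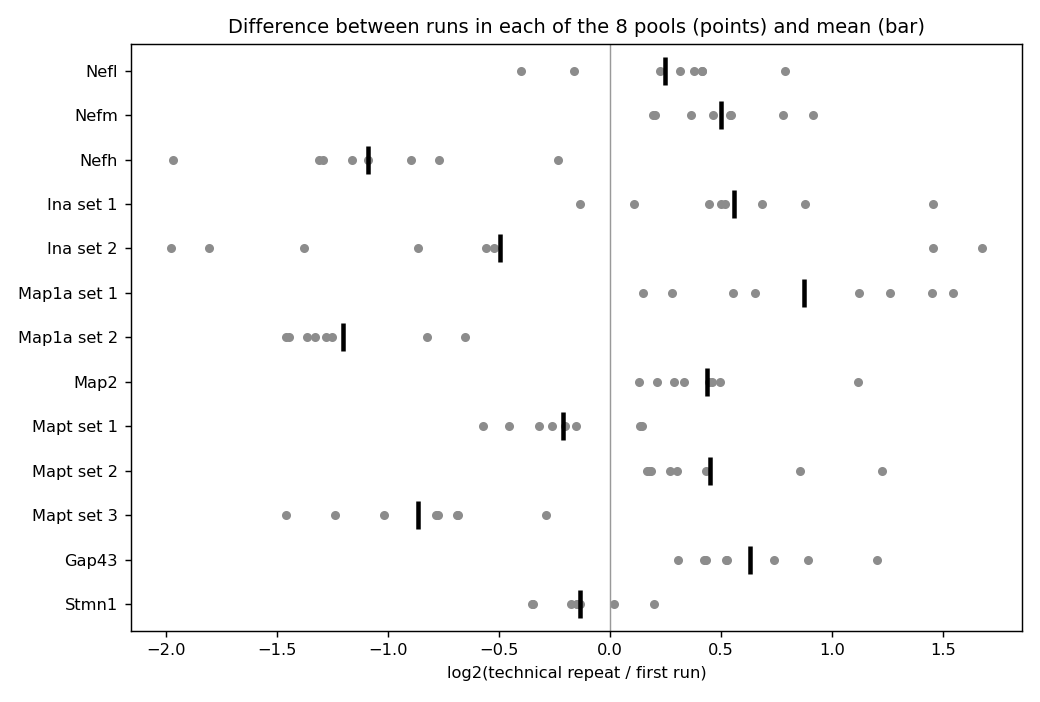
Log2 ratio of technical repeat to first run (horizontal axis) in each of the 8 pools (points) with the mean (bar) for the 13 tested probe sets (vertical axis). All 8 points lie above 0 for Nefm, Map1a set 1, Map2, Mapt set 2 and Gap43 and below 0 for Nefh, Map1a set 2 and Mapt set 3.

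A fixed shift between runs leaves a time course as it is, so the courses were compared too. Over the 8 pools the correlation between the runs lay between −0.83 and 0.54 for the 13 sets, with a median of 0.13 against 0.09 over all tested sets, and 9 of 13 values were above 0. The highest were those of Map1a set 2 (r = 0.54, exact permutation p = 0.160, rho = 0.69, exact p = 0.0694; r = 0.31 without 2 pools) and Stmn1 (r = 0.51, exact permutation p = 0.194, rho = 0.33, exact p = 0.428; r = 0.31 without the 2 pools farthest from the median). The lowest was that of Mapt set 2 (r = −0.83, exact permutation p = 0.0167, 0.217 after adjustment over the 13; rho = −0.52, exact p = 0.197; r = 0.12 without 2 pools), and so rests on those pools. No correlation passed after adjustment. The spread over pools was larger in the first run for 10 of 13 sets, as for 3086 of all 4370.

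Arrays a and b of the first run bear on this as well. For 8 of 13 sets both arrays b differed from arrays a by more than the largest fitted phase difference of that set, against 51.7% of all sets. Map2 read 5662 on array a and 3201 on array b at 24 h, and 5254 and 2778 at 36 h. Ina set 1 went up from 327 to 565 and from 271 to 766 from a to b, where Ina set 2 went down. Mapt set 1 was higher on b (11786 and 16322 at 24 h), whereas Mapt set 2 was lower (6332 and 4669). That a and b hold RNA of a single pool is an assumption, since the labels leave it unstated.

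**Figure D4:**
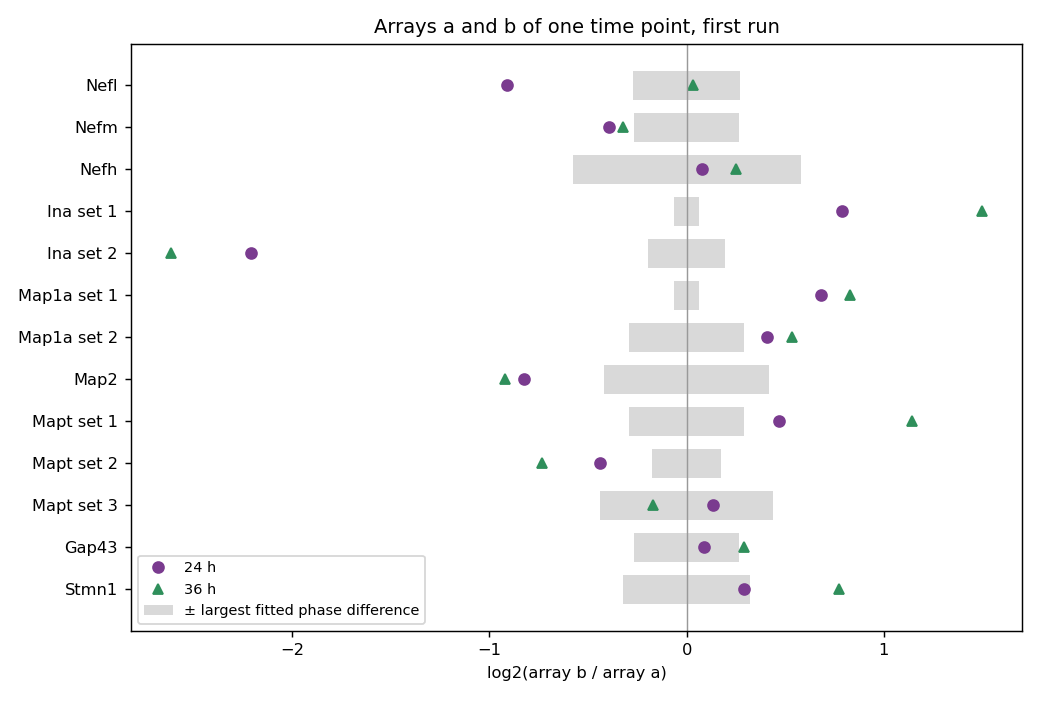
Log2 ratio of array b to array a (horizontal axis) at 24 h (circles) and 36 h (triangles) of the first run for the 13 tested probe sets (vertical axis), with the largest fitted phase difference of each set to either side of 0 as a grey bar. Both points lie outside the bar for 8 sets, farthest for the second Ina set at −2.21 and −2.61.

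The neurofilament subunits assemble with each other, and Nefl and Nefm are neighbouring genes on chromosome 15, so their courses over the pools were set against each other. The 6 pairs of Nefl, Nefm, Nefh and Ina set 1 were chosen after the files had been seen. Nefl and Nefm had r = 0.18 over the 8 pools (exact permutation p = 0.655; rho = 0.26, exact p = 0.536; r = 0.35 without 2 pools; adjusted over the 6 pairs, p = 0.787). The pair with the r farthest from 0 was Nefl and Ina (r = −0.67, exact permutation p = 0.0683, 0.410 after adjustment; rho = −0.60, exact p = 0.132; r = −0.68 without 2 pools), with −0.82 in the first run and −0.31 in the repeat. None of the 6 passed. In the first run and the repeat, r was 0.060 and 0.58 for Nefl and Nefm, and −0.57 and 0.55 for Nefl and Nefh. The course of Ina set 1 itself had r = −0.46 between the runs.

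The sets of other genes most like Mapt set 1, the brightest member, over the 8 pool means were those of Dgka (r = 0.98), a diacylglycerol kinase, Dnm1 (r = 0.97), the dynamin of synaptic vesicle endocytosis, and mitochondrial COX1 (r = 0.94). They were picked as the highest of all, and these values share the same arrays, so they are a description.

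The wider cytoskeleton was read from 7 lists with 144 genes, of which 84 were on the array and 67 were tested, each by its brightest set. None of the 67 passed limma at an adjusted p in the rhythm, phase or day comparisons. Without adjustment 2 were called for the rhythm, 4 higher and 4 lower at CT 12 than at CT 0, 1 lower at CT 6 than at CT 18, and 0 between days. Over all tested sets these calls took 6.36%, 8.67%, 4.26% and 3.96%. Among 5 tubulins, the subunits that microtubules are built of, Tubb2b (0.55 ± 0.20 SE, log2, limma unadjusted p = 0.018) and Tuba1b (0.44 ± 0.17, unadjusted p = 0.030) had higher values at CT 12 and Tuba4a a lower one (−0.43 ± 0.19, unadjusted p = 0.044). The median of the 5 was 0.29, against 0.02 over all tested genes.

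Of 5 other intermediate filament genes, Prph, the peripheral neurofilament partner peripherin, had a CT 12 minus CT 0 difference of 0.66 ± 0.28 (SE, log2) and Krt8 one of −0.62 ± 0.29. Of 15 genes of axon growth, Tagln3 stood at 0.54 ± 0.21, Crmp1 at 0.43 ± 0.21 and Dpysl2 at 0.52 ± 0.27. The list median was 0.11. Of 17 kinases and phosphatases that act on neurofilaments and tau, Mapk9, the stress kinase JNK2, had the lowest unadjusted p (−0.98 ± 0.24 for CT 12 minus CT 0; limma unadjusted p = 0.00221), with a list median of 0.06.

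Of 8 motor genes, Dync1h1, the dynein heavy chain, stood at −0.45 ± 0.19 (SE, log2) for CT 12 minus CT 0, and Dctn1 of the dynactin complex at −0.44 ± 0.17 for CT 6 minus CT 18, while Dynlt1 had 0.36 ± 0.18 for the first of these. Of 12 actin and spectrin genes, Sptan1, the alpha spectrin of the neuronal membrane skeleton, stood at −0.73 ± 0.27 for CT 12 minus CT 0. Of 5 other microtubule-associated genes, 0 had an unadjusted p under 0.05, and Dclk1, a doublecortin-like kinase, had the smallest, with −0.39 ± 0.19 for CT 6 minus CT 18.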

How the data were processed

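RNA of 8 SCN pools was measured on 18 rat GeneChip arrays, 1-colour oligonucleotide arrays. The authors' deposited values are probe set intensities on a linear scale, already scaled per array, with a mean of 501 after trimming 2% at each end; for the summarising algorithm, name and version: not given in the sources used here. Values below the 10th percentile (12.1) were set to that floor and log2 transformed. Arrays a and b were averaged, then both runs. Without the 59 control sets, 4370 sets with a mean above the median (a geometric mean of 121) were tested. A cosine and sine of 24 h were fitted with limma 3.58.1 in R 4.3.3 (lmFit, eBayes), with Benjamini-Hochberg adjustment over the 4370 and a threshold of 0.05; a day term was added for days, and within-pool differences were tested for runs. Exact permutation tests were two-sided in Python with scipy; the fits were tested on simulated data.

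Gene symbols came from the platform annotation (7006 sets with 1 symbol, 308 with several, 1426 with none). All sets of the 10 genes are named. From each list up to 3 genes with the smallest p are named, in the text where a value helps, and the 3 sets most like the brightest member. The members and lists were chosen with earlier results of these data known. The alternatives were quantile or median scaling, other level filters, a pseudocount of 16 or another floor, limma with trend and robust, single runs, omission of arrays a, of arrays b or of each pool, other designs, and fits to single arrays. Other time points and the cell line of the study's title were not analysed here.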

Additional observations from a re-analysis of the deposited data

Results flagged for a closer look

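The pool at 36 h of Mapt set 1 read 13864, while the 3 other day 2 pools read 11348 to 11418, so that its gap to the nearest made up 0.97 of the range of the 4 pools. In the first run, array b read 22535 and array a 10214 at this time point, and the technical repeat read 12669. Chance flags about 1 in 20 groups, and 52 groups of pools or arrays were tested in this way. No difference between the runs or the days in a member's phase effect passed limma's adjusted threshold.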

How the results depend on the processing

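At an adjusted limma p under 0.05, 0 member sets were called for the rhythm or between days under each of the 22 alternatives run, pools left out included. The same was true of CT 12 minus CT 0 and of CT 6 minus CT 18. Most settings tested 13 sets, the repeat alone and the fit without the 6 h pool 12, and the filter at the 75th percentile 10. The count between the runs, with 16 alternatives, lay between 7 and 10 (8 to 9 with each pool left out). Unadjusted counts changed: for the rhythm 1 set with no level filter, with the filter at the 75th percentile, with trend and robust, and with single arrays and the pool as a random block, and 0 to 1 with each pool left out (1 without the 6 h pool). For CT 12 minus CT 0 it was 2 with trend and robust, 0 with no level filter, with either run alone, without arrays b, and with single arrays with or without the 3 arrays of high hybridisation controls, a setting chosen after seeing the data. It ran from 0 to 2 with each pool left out (0 without the 0 h, 12 h or 36 h pool, 2 without the 24 h pool). For CT 6 minus CT 18 it was 0 with either run alone or without those 3 arrays, and 0 to 1 with each pool left out (0 without the 30 h or 42 h pool). For the days it was 0 with no level filter, the first run alone, without arrays b or without the cosine and sine, and 0 to 1 with each pool left out (0 without the 0 h or 6 h pool).

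CT 12 minus CT 0 changed sign in 12 of 178 values, of 6 sets. In the repeat alone it was 0.052 for Nefl, −0.27 for Ina set 2, 0.24 for Map1a set 1 and 0.22 for Mapt set 2. In the first run alone it was 0.21 for Ina set 1 and 0.070 for Map1a set 2. Without arrays a it was 0.067 for Ina set 1 and −0.021 for Ina set 2, and without arrays b 0.025 for Mapt set 2. It was −0.058 for Ina set 2 with median scaling, 0.016 for Map1a set 1 with single arrays, and 0.14 for Mapt set 2 without the 3 arrays. With each pool left out it ran from −0.13 to 0.18 for Ina set 1 (0.18 without 24 h), from −0.96 (without 24 h) to 0.86 (without 36 h) for Ina set 2, from −0.10 to 0.031 (without 12 h) for Map1a set 1, from −0.31 to 0.064 (without 36 h) for Map1a set 2 and from −0.043 to 0.028 (without 0 h) for Mapt set 2. CT 6 minus CT 18 changed sign in 16 and the day difference in 18 of 178 values, among them Ina set 2 between days in the repeat alone (0.16). Between the runs, median scaling gave 0.086 for Mapt set 1 and 0.16 for Stmn1 and called Nefl. Ina set 1 was not called without arrays a, nor Map2 without arrays b, nor Mapt set 2 without the 36 h pool. The correlation between runs became −0.030 for Nefh, 0.38 and −0.40 for Ina sets 1 and 2, and 0.51 and 0.12 for Mapt sets 1 and 2 without 2 pools. The causes were not tested.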
